A study of Homo sapiens with 8 samples.

Results

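The mRNAs of 7 genes that control the breakdown of the extracellular matrix were examined for LARP6 binding: the matrix metalloproteinases MMP1, MMP2 and MMP14, the tissue inhibitors of metalloproteinases TIMP1, TIMP2 and TIMP3, and the serine protease inhibitor SERPINE2. A region belonged to a gene when its midpoint lay within the GRCh38 bounds of the gene, on the gene's strand. This gave 677 of 176826 tested clusters in 4 libraries and 12 of 1635 peaks in the 2 lists that the authors made from both replicates of a condition, 689 of 178461 regions in all. The assay was eCLIP, which joins RNA to protein with ultraviolet light (254 nm, 400 mJ/cm2), fragments the RNA with RNase I, recovers it with an antibody to LARP6 and sequences it together with an input of the same size range. The cells were wild-type human hepatic stellate cells, the matrix-producing cells of the liver, grown in DMEM with serum. They received TGFβ1 at 5 ng/ml (2 immunoprecipitated and 2 input libraries) or were controls, for which the labels give both untreated and DMSO (2 and 2). The labels do not tie replicates to separate cultures, and the spread over them may be technical.

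Metalloproteinases cleave collagens and other matrix proteins, and TIMPs block them by binding to the active site. The balance of these enzymes and inhibitors bears on whether a liver scar grows or is resorbed, and stellate cells are a known source of both. MMP14, a protease anchored in the cell membrane, activates the secreted precursor of MMP2, a gelatinase, at the cell surface together with TIMP2. LARP6 is an RNA-binding protein best known for its hold on a stem-loop in the 5′ part of fibrillar collagen mRNAs.

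Log2 folds below are those the authors deposited for clusters relative to the input, and each −log10 p is theirs for the same comparison. A cluster was called enriched when both values were at least 3. By this rule 2.69% and 3.64% of all tested clusters were enriched in TGFβ1 replicates 1 and 2, and 1.21% and 2.09% in control replicates 1 and 2. Read counts are not part of the lists, which leaves the depth unknown, and 31137 and 54536 clusters were tested in the TGFβ1 libraries against 51273 and 39880 in the control libraries. Of 12 listed stellate cell markers, 9 had tested clusters in every library. None of 4 hepatocyte markers with a known strand had any, and of 5 macrophage markers only CD68 did, with 2 and 4 clusters in the TGFβ1 and 2 and 4 in the control libraries. Of 2 endothelial markers with a known strand, KDR had 2 clusters in TGFβ1 replicate 2 and none in the other libraries. The cholangiocyte markers KRT7 and SOX9, 2 of 4 listed, held 15 and 18 clusters in the TGFβ1 libraries against 2 and 3 in the control libraries, and the part of this difference in the results below was not tested.

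LARP6 peaks lay in both of the metalloproteinases that could be tested and in SERPINE2, and in none of the TIMPs. MMP2 held most of them, at 2 places, MMP14 had 1 place near the 3′ end of the gene, and SERPINE2 had 1 peak, in the TGFβ1 list. TIMP1, TIMP2 and TIMP3 had tested clusters in all libraries and no enriched one, and MMP1 had no tested cluster. Of protein-coding genes tested in both libraries of a condition, 7.04% of 5372 had a list peak in TGFβ1 and 3.88% of 5489 in control. Having no peak was thus usual, and a contrast between proteases and TIMPs was not tested. In TGFβ1 replicates 1 and 2, 5 of 147 clusters (3.40%, exact 95% interval 1.11 to 7.76) and 7 of 168 clusters (4.17%, 1.69 to 8.40) in the 7 genes were enriched. In control replicates 1 and 2 these were 1 of 182 clusters (0.549%, 0.0139 to 3.02) and 4 of 180 clusters (2.22%, 0.609 to 5.59). The shares were near those over all clusters of each library, which each interval contains. The intervals rest on few enriched clusters and are wide, so containment alone does not show that a share equals the background. The intervals cover counting error only, and clusters of 1 gene are not independent.

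**Figure D1:**
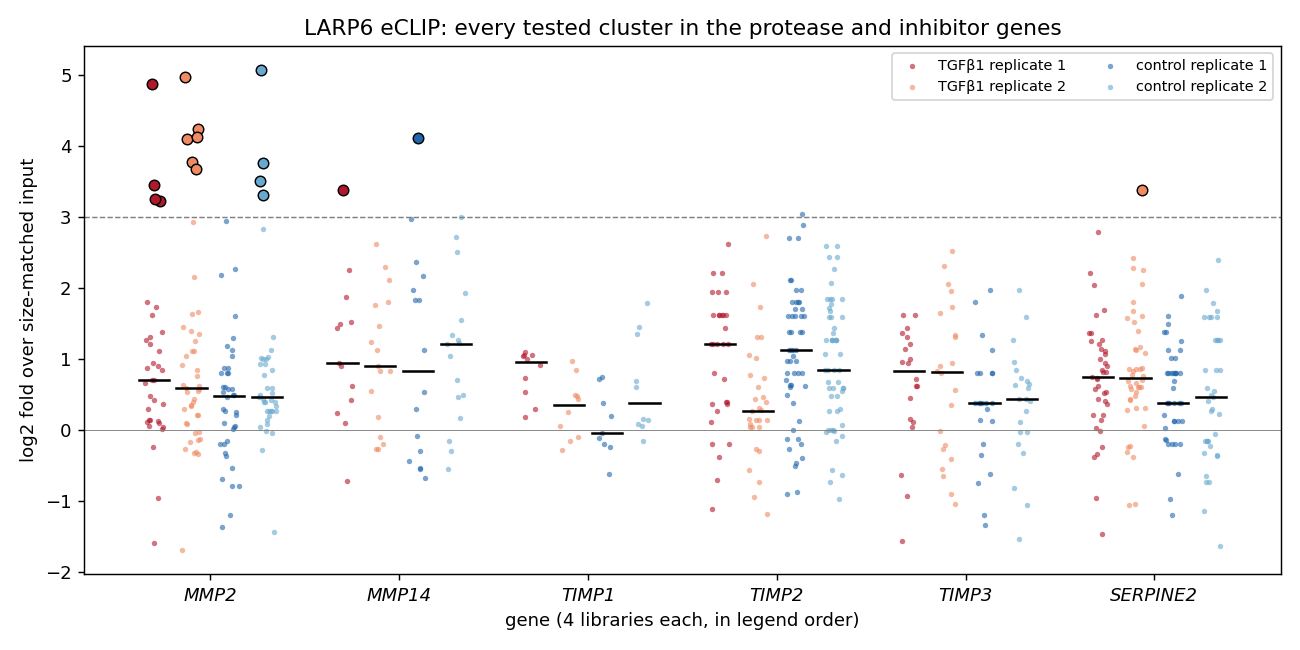
Log2 fold over input (y axis) of every tested cluster in 6 genes (x axis), 1 point per cluster, with the TGFβ1 libraries in red and orange left of the control libraries in blues. Black bars are medians, large outlined points are enriched clusters and the dashed line marks a log2 fold of 3; outlined points lie in MMP2, MMP14 and SERPINE2, and none in the 3 TIMP genes.

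Counted by gene, MMP2 and MMP14 held an enriched cluster in TGFβ1 replicate 1 and MMP2 and SERPINE2 in TGFβ1 replicate 2, against MMP14 in control replicate 1 and MMP2 in control replicate 2. Of all protein-coding genes with a tested cluster, 6.55% and 11.5% held an enriched one in the TGFβ1 libraries and 2.96% and 5.11% in the control libraries. No gene of the 7 was thus called in all 4 libraries. How many of all genes were so called was not counted, so nothing is read from this. A gene with more tested clusters has more chances to hold an enriched one. The 7 genes were not matched to others by number of tested clusters, so their counts are not compared with these shares.

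MMP2 encodes the gelatinase that cleaves denatured and basement membrane collagens and lies on the plus strand of chromosome 16 (55478830 to 55506691). It had 6 peaks in the TGFβ1 list and 3 in the control list. Peaks at most 20 nt apart formed 2 sites in each list, 1007 nt from each other in TGFβ1 and 1076 nt in control. Over both lists the upstream site (55482961 to 55483029) had its first peak 4145 nt from the gene's 5′ end, at 14.9% of the gene's length. The downstream site (55484037 to 55484152) had its highest peak at 5266 nt, or 18.9%. These distances are along the genome, and whether the sites lie in exons or introns is not given by the gene bounds used here.

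MMP2 had 34 and 45 tested clusters in the TGFβ1 libraries, of which 4 and 6 were enriched. In the control libraries 0 of 40 and 4 of 39 were enriched. All of these enriched clusters overlapped the sites, except 1 of control replicate 2 that ended at the base before the upstream site. The median log2 fold of all MMP2 clusters was 0.70 and 0.59 in the TGFβ1 libraries and 0.47 and 0.45 in the control libraries. Clusters near the 5′ end of the gene (55479210 to 55479629) were above this median in part, and none was enriched. Their highest log2 folds were 1.80 and 2.15 in TGFβ1 replicates 1 and 2, with −log10 p of 10.1 and 6.94. In control replicates 1 and 2 these were 0.21 and 1.30, with −log10 p of 0.0672 and 8.35.

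At the upstream MMP2 site the highest log2 fold of an overlapping cluster was 4.87 and 4.23 in TGFβ1 replicates 1 and 2, against 2.26 and 5.07 in control replicates 1 and 2. The means were 4.55 ± 0.45 in TGFβ1 libraries and 3.67 ± 1.98 in control libraries (SD, n = 2 each). Control libraries held both the lowest and the highest of the 4 values, and the conditions overlapped. At the downstream site the values were 3.45 and 4.97 in the TGFβ1 libraries and 2.94 and 3.75 in the control libraries, with means of 4.21 ± 1.07 in TGFβ1 and 3.35 ± 0.57 in control libraries (SD, n = 2 each). Here TGFβ1 replicate 1 lay below control replicate 2, and the conditions overlapped again.

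A shoulder of about 50 nt stood directly upstream of the first MMP2 site. Clusters starting at 55482909 in both TGFβ1 libraries had values of 3.22 and 2.92 (log2 fold), and those starting at 55482910 and 55482911 in control replicates 1 and 2 had 2.19 and 3.51. It was past the fold limit in 1 library of each condition and was in neither list from both replicates. The flanks on the other side were lower. The cluster next downstream of the site had a log2 fold of 0.65 in TGFβ1 replicate 1 and 1.11 in TGFβ1 replicate 2, and the clusters bordering the downstream site at its 3′ side had 1.31 and 1.25 in the TGFβ1 libraries and 1.30 and 1.02 in the control libraries.

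Widths of the MMP2 clusters differed between libraries. At the upstream site the only cluster of control replicate 1 was 123 nt long, whereas the highest cluster was 26 and 24 nt in the TGFβ1 libraries and 27 nt in control replicate 2. The lists from both replicates allow a comparison over the same bases. Each of their 1635 peaks had exactly the bounds of a cluster in at least 1 library. Where both libraries had these bounds, the list's log2 fold was the mean of both values within 0.01 in 35 of 35 TGFβ1 peaks and 26 of 26 control peaks, and its −log10 p was the smaller one. If the list's fold is such a mean for the other peaks too, the value of the other library over the same bases follows by subtraction, and such inferred values are given next.

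Over the 29 nt of the first TGFβ1 peak of MMP2 (list log2 fold 4.50) the inferred value was 4.90 in TGFβ1 replicate 1, beside 4.10 deposited for TGFβ1 replicate 2. Over the 27 nt of the matching control peak (list log2 fold 4.06) it was 3.04 in control replicate 1, beside 5.07 deposited for control replicate 2. Control replicate 1 was therefore just past the fold limit over the short region and under it, at 2.26, over its own longer cluster. At the downstream site, the TGFβ1 peak at 55484102 to 55484152 had 3.54 and 4.13 in TGFβ1 replicates 1 and 2, and the control peak at 55484104 to 55484143 had 3.43 and 3.75 in control replicates 1 and 2. A 10 nt TGFβ1 peak at 55484092 to 55484101 had the highest list value of MMP2, a log2 fold of 4.52, with 4.07 and 4.97 in the TGFβ1 libraries. Its bases are covered by the control peak at 55484064 to 55484103, which had a list log2 fold of 3.18.

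**Figure D2:**
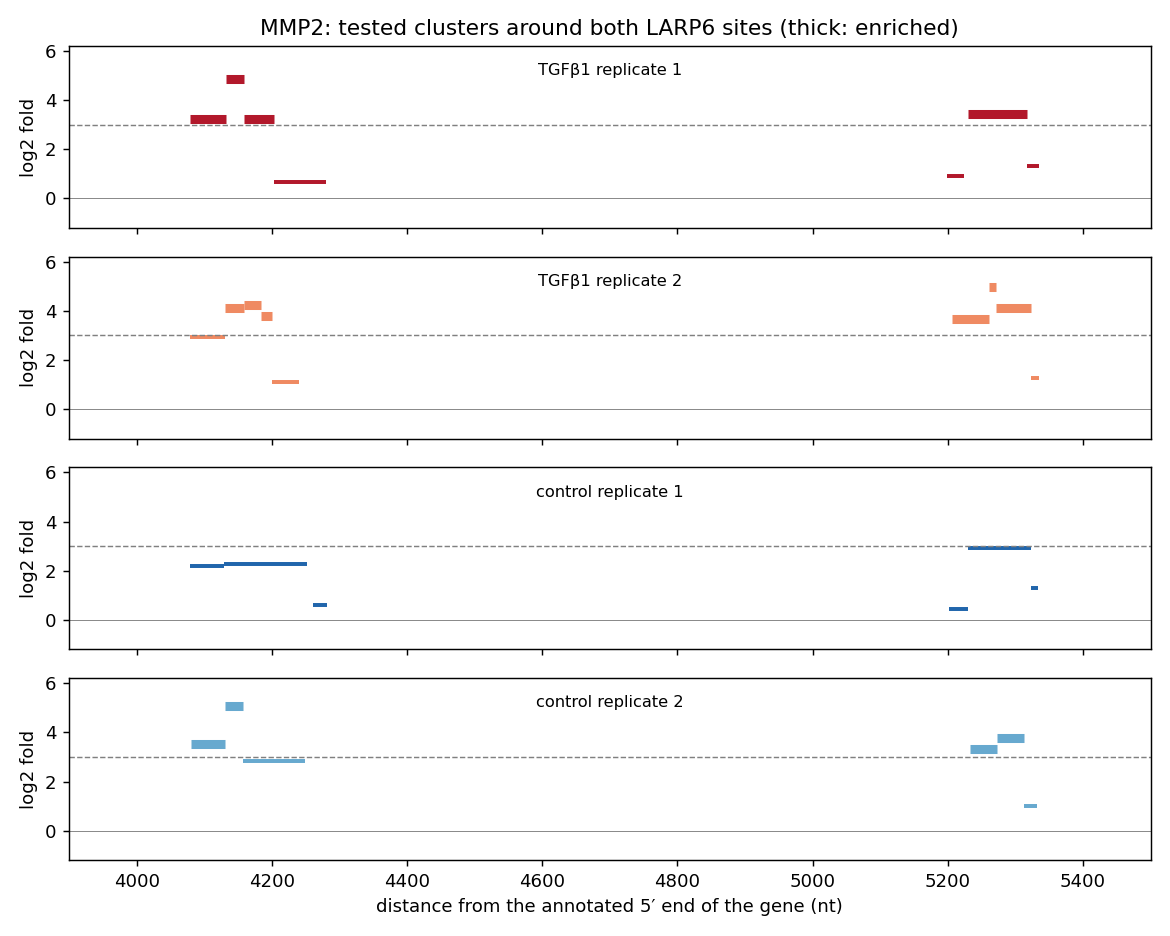
Log2 fold over input (y axis) of the tested MMP2 clusters around both sites by distance in nt from the gene's 5′ end (x axis), 1 panel per library with TGFβ1 above control. Each line spans a cluster, thick lines are enriched and the dashed line marks a log2 fold of 3; clusters stand high at the same 2 places in each library, and control replicate 1 has a 123 nt cluster at 2.26 where the other libraries have shorter and higher ones.

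MMP2 was among the genes with many peaks and near the middle by their height. In the TGFβ1 list 15 of 378 protein-coding genes had more than its 6 peaks, and the median over these genes was 2. In the control list 32 of 213 genes had more than its 3 peaks, and the median was 1. By the highest log2 fold, MMP2 ranked 205 of 378 in the TGFβ1 list (4.52, median of the genes 4.60) and 135 of 213 in the control list (4.06, median 4.26).

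MMP14, on the plus strand of chromosome 14 (22836585 to 22847758), had 1 peak in each list. The TGFβ1 peak (22846278 to 22846300) and the control peak (22846290 to 22846307) overlapped, at 1469 and 1459 nt before the gene's 3′ end. Their list log2 folds were 3.74 in TGFβ1 and 3.35 in control, low among the genes with a peak (rank 311 of 378 and 194 of 213). Most MMP14 clusters were near this end: 12 of 13 and 14 of 17 in the TGFβ1 libraries and 13 of 16 and 15 of 17 in the control libraries lay in the last 5000 nt.

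The highest cluster at the MMP14 site had a log2 fold of 3.37 and 2.10 in TGFβ1 replicates 1 and 2 and of 4.10 and 2.99 in control replicates 1 and 2. The −log10 p of these clusters was 9.07 and 14.5 in the TGFβ1 libraries and 14.5 and 9.23 in the control libraries. Replicate 1 of each condition was past the fold limit and replicate 2 was not, and the conditions overlapped (2.74 ± 0.90 in TGFβ1 and 3.55 ± 0.78 in control libraries, SD, n = 2 each). The cluster of TGFβ1 replicate 2 was 80 nt long, against 23 nt in TGFβ1 replicate 1 and 18 and 31 nt in the control libraries.

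Over the 23 nt of the TGFβ1 peak of MMP14, the inferred value was 4.12 in TGFβ1 replicate 2, beside 3.37 deposited for TGFβ1 replicate 1. Over the 18 nt of the control peak it was 2.60 in control replicate 2, beside 4.10 deposited for control replicate 1. Both TGFβ1 values were past the fold limit over the TGFβ1 peak, and 1 of 2 control values was over the control peak, which spans partly other bases. No list peak was under the fold limit and 1 value of each pair is inferred, so the conditions are not compared by this. Another place, about 1238 nt from the 3′ end of MMP14, was tested in each library. Its log2 fold was 0.94 and 2.61 in the TGFβ1 libraries and 2.96 and 2.72 in the control libraries. Only TGFβ1 replicate 2 had a −log10 p past the limit there, at 8.77.

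**Figure D3:**
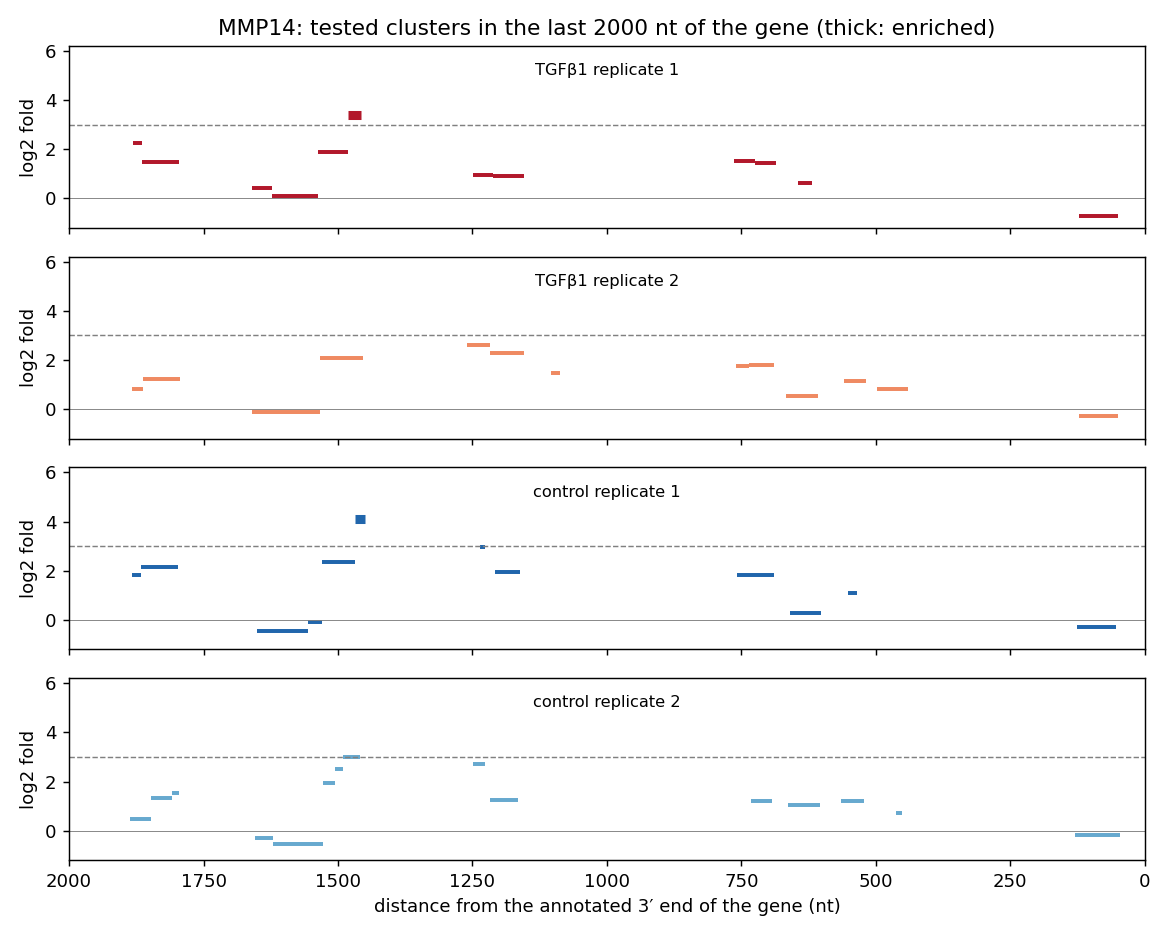
Log2 fold over input (y axis) of the MMP14 clusters in the last 2000 nt by distance from the annotated 3′ end of the gene in nt (x axis, end at the right), 1 panel per library with TGFβ1 above control. Thick lines are enriched and the dashed line marks a log2 fold of 3; replicate 1 of each condition has the enriched cluster, at 3.37 and 4.10, and TGFβ1 replicate 2 has an 80 nt cluster at 2.10 over the same place.

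MMP1, the interstitial collagenase (chromosome 11, 102789919 to 102798160), had no tested cluster on either strand in any library. The lists do not give its level in these cells, so LARP6 binding to MMP1 mRNA could not be assessed.

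TIMP1 is a secreted inhibitor of most metalloproteinases (chromosome X, 47582436 to 47586789, plus strand). It was tested in 10 and 10 clusters in the TGFβ1 libraries and 9 and 10 in the control libraries. Per gene length this was the densest set of the 6 genes, at 2.30 and 2.30 clusters per kb in TGFβ1 and 2.07 and 2.30 in control libraries. None was enriched, and the highest log2 folds were 1.09 and 0.96 in the TGFβ1 libraries and 0.75 and 1.78 in the control libraries. The 1 cluster within 500 nt of the 5′ end of TIMP1 had 0.91 and −0.15 in TGFβ1 and −0.21 and 1.78 in control libraries, so its sign differed between replicates of both conditions. SYN1 overlaps TIMP1, and all 39 clusters within the bounds of TIMP1 lay on the plus strand.

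TIMP3, an inhibitor that stays bound to the matrix, lies on chromosome 22 (32801705 to 32863041, plus strand) and overlaps SYN3. It was tested in 20 and 22 clusters in the TGFβ1 libraries and 23 and 22 in the control libraries, none of them enriched. Its highest log2 folds were 1.62 and 2.52 in the TGFβ1 libraries and 1.96 and 1.96 in the control libraries. The value of 2.52 belonged to the cluster with the largest −log10 p of the gene, 14.1, in TGFβ1 replicate 2 (32860675 to 32860836, 2285 nt from the 3′ end). At this place the log2 fold was 0.99 and 2.52 in TGFβ1 libraries and 1.34 and 0.95 in control libraries. TGFβ1 replicate 2 stood apart there, and TGFβ1 replicate 1 lay between the controls.

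TIMP2, the inhibitor that also takes part in MMP2 activation, spans 72411 nt on the minus strand of chromosome 17 (78852977 to 78925387). Its tested clusters numbered 31 and 30 in the TGFβ1 libraries and 53 and 55 in the control libraries, so the conditions did not overlap. Among 1014 protein-coding genes with a mean of at least 10 tested clusters, 29.8% had fewer in both TGFβ1 libraries than in both control libraries. Per 10000 clusters of the library TIMP2 had 9.96 and 5.50 in TGFβ1 and 10.3 and 13.8 in control libraries, and 32.5% of these genes fell the same way on this scale. A count of tested clusters also depends on the RNA present and on depth, whose part was not tested, and in such bulk samples fewer cells of a type and less RNA per cell cannot be told apart.

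No TIMP2 cluster was enriched. The highest log2 folds were 2.62 and 2.72 in TGFβ1 and 3.04 and 2.58 in control libraries. Their −log10 p was 1.06 and 1.33 in TGFβ1 and 1.90 and 1.20 in control libraries, all under the limit. The cluster of 3.04, in control replicate 1, was past the fold limit with a −log10 p of 1.90. Many TIMP2 clusters had exactly the same fold and p as another TIMP2 cluster of their library: 17 of 31 and 3 of 30 in the TGFβ1 libraries and 29 of 53 and 30 of 55 in the control libraries. SERPINE2 had such clusters too, 2 of 39 and 3 of 44 in the TGFβ1 libraries and 25 of 41 and 16 of 37 in the control libraries. Over a whole library, 93.5% and 94.0% of clusters shared both values with some other cluster in TGFβ1 and 96.8% and 95.4% in control. The TIMP2 cluster with the largest −log10 p of the gene, 4.11, lay 363 nt from its 5′ end (78924965 to 78925083), with log2 folds of 0.71 and 0.77 in TGFβ1 and 0.63 and 0.48 in control libraries. CEP295NL lies within the bounds of TIMP2, and the 12 and 10 TGFβ1 clusters and 16 and 14 control clusters there may belong to either gene.

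SERPINE2, also called protease nexin 1, inhibits thrombin, urokinase and plasmin (chromosome 2, 223975045 to 224039286, minus strand). Its peak in the TGFβ1 list (223998236 to 223998251, 41042 nt from the 5′ end) had a log2 fold of 3.08, close to the limit, and the gene ranked 374 of 378. Clusters at this place had 1.69 and 3.38 in TGFβ1 replicates 1 and 2 and 1.88 and 2.39 in control replicates 1 and 2. The cluster was enriched in TGFβ1 replicate 2 alone, and the conditions overlapped (2.54 ± 1.20 in TGFβ1 and 2.14 ± 0.36 in control libraries, SD, n = 2 each). Over the 16 nt of the peak the inferred value of TGFβ1 replicate 1 was 2.79.

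**Figure D4:**
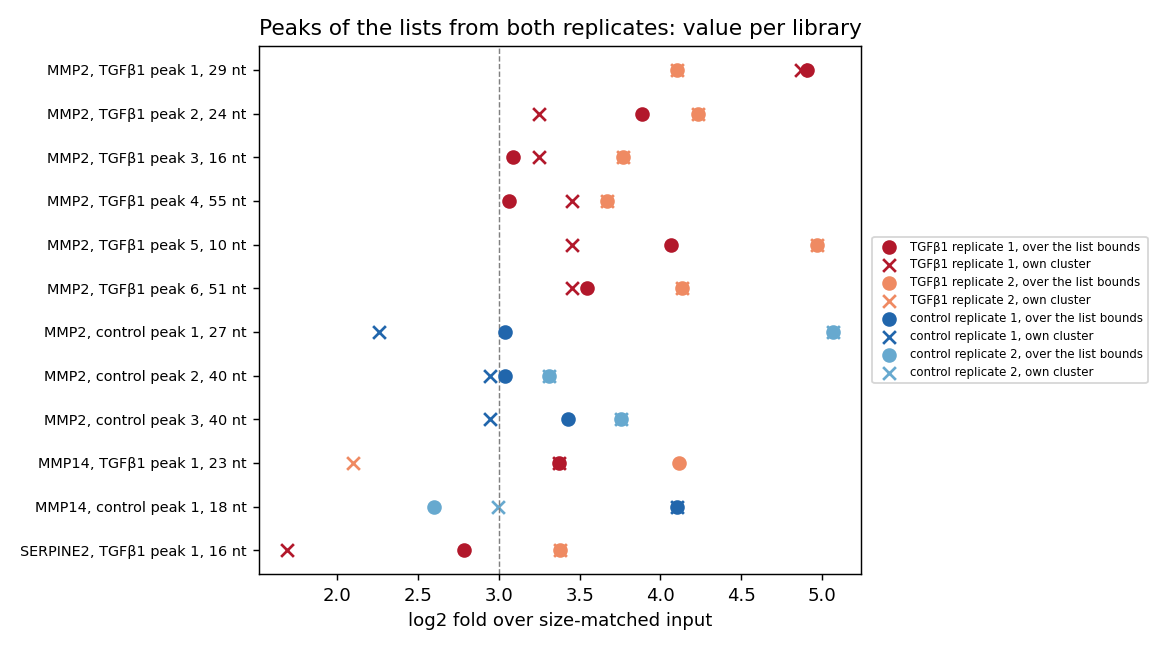
Log2 fold over input (x axis) at the 12 peaks of the lists from both replicates (y axis, with gene, list and peak width), TGFβ1 peaks above control peaks within each gene. Circles are values over the bases of the peak, deposited or inferred, and crosses the highest overlapping cluster of the same library; circle and cross part most for SERPINE2 and MMP14 in TGFβ1, and 2 circles lie left of the dashed limit of 3.

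Over all 12 peaks of MMP2, MMP14 and SERPINE2, 15 of 16 values in the TGFβ1 libraries and 7 of 8 in the control libraries reached 3 over the bases of the list. Over all peaks of the lists 94.8% of the TGFβ1 values and 92.0% of the control values did, and since no list peak was under 3, nothing is read from these counts. The exceptions were SERPINE2 in TGFβ1 replicate 1 and MMP14 in control replicate 2.

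A cluster at the 5′ end of SERPINE2, 24 nt from it, had the largest −log10 p of this gene (224039235 to 224039289 in TGFβ1 replicate 2). Its log2 fold was 2.04 and 2.28 in the TGFβ1 libraries, with −log10 p of 14.6 and 29.4. In the control libraries it was 0.68 and 1.78, with −log10 p of 0.774 and 3.01. The conditions did not overlap here, and no value reached the fold limit. The clusters beside it had lower log2 folds, at 0.51 and 0.43 in the TGFβ1 libraries and −0.15 and 0.29 in the control libraries. Their −log10 p was 3.95 and 5.58 in the TGFβ1 libraries, past the limit, and was under it in both control libraries.

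The same question was put to each gene at the cluster with its largest −log10 p. Of 6 genes, MMP2, TIMP2 and SERPINE2 had both TGFβ1 folds above both control folds, that is 3 of 6, where 47.7% of 1070 protein-coding genes did. None had both below, where 3.55% did. The members were near the background in both. Each place was chosen by its −log10 p, and for all 6 genes the chosen cluster was of a TGFβ1 library. Higher TGFβ1 folds at these places therefore follow in part from that choice. For MMP2 this place (55482990 to 55483013) lies within the upstream site. Its log2 folds were 3.25 and 4.23 in the TGFβ1 libraries and 2.26 and 2.82 in the control libraries. By the highest cluster at that site the conditions overlapped, as given above, so the order there depends on the cluster taken.

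Clusters with a −log10 p of at least 3 at any fold made up 25 of 147 (17.0%) and 42 of 168 (25.0%) in the TGFβ1 libraries and 6 of 182 (3.30%) and 14 of 180 (7.78%) in the control libraries. Over all clusters these were 5.37% and 6.72% in the TGFβ1 libraries and 2.16% and 3.86% in the control libraries. In SERPINE2 there were 9 and 14 such clusters in TGFβ1 libraries and 0 and 2 in control libraries. In TIMP3 there were 1 and 5 in TGFβ1 and 0 and 0 in control libraries, and in TIMP2 1 and 1 in TGFβ1 and 0 and 0 in control libraries. MMP2 had 7 and 15 in TGFβ1 and 3 and 7 in control libraries, which met at 7. The conditions overlapped in MMP14, with 4 and 6 in TGFβ1 and 3 and 4 in control libraries, and in TIMP1, with 3 and 1 in TGFβ1 and 0 and 1 in control libraries. A p of this kind grows with the reads in a cluster, which the lists do not hold, and the part of RNA level in these counts was not tested. The share over all clusters was also higher in both TGFβ1 libraries. How many of all genes run this way was not counted, so nothing is read from the counts per gene.

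The treatment comparison asks whether TGFβ1 altered LARP6 binding to these mRNAs. The mean share of enriched clusters was 3.78% ± 0.541 in TGFβ1 libraries and 1.39% ± 1.18 in control libraries (SD, n = 2 each), a difference of 2.40 percentage points. Both TGFβ1 libraries were above both control libraries, as they also were over all clusters. The exact two-sided permutation test over libraries gave p = 0.33, the smallest p that 2 libraries against 2 allow. Without control replicate 1 the difference was 1.56 points. In the lists from both replicates MMP2, MMP14 and SERPINE2 had 8 peaks at 4 sites in TGFβ1, and MMP2 and MMP14 had 4 peaks at 3 sites in control. The whole TGFβ1 list held 1008 peaks and the whole control list 627. Of the TGFβ1 peaks in these genes 5 of 8 overlapped a control peak, where 61.0% of all TGFβ1 peaks did, and of the control peaks 4 of 4 overlapped a TGFβ1 peak, where 79.6% of all control peaks did. These counts were near the background. With replicate 1 alone standing for a condition, there were 5 enriched TGFβ1 clusters and 1 control cluster in place of the 8 and 4 peaks. The SERPINE2 peak and 2 MMP2 peaks had no overlapping peak in the control list. These MMP2 peaks, at 55482990 to 55483013 and 55483014 to 55483029, follow each other directly downstream of the first TGFβ1 peak. Longer control clusters covered their bases, with log2 folds of 2.26 and 2.82 in control replicates 1 and 2. The −log10 p of these control clusters was 9.05 and 17.5, and both were under the fold limit.

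Other genes of matrix proteolysis came from lists of proteases, inhibitors, activators and receptors, with 73 genes besides the 7 described. In TGFβ1, 3 of the 37 tested in both libraries had a peak in the list from both replicates (8.11%), where 7.04% of 5372 protein-coding genes did. In control 1 of 39 had one (2.56%), where 3.88% of 5489 did. These shares were near the background. Besides MMP2 and MMP14, none of the 16 listed metalloproteinases with a known strand was tested in both TGFβ1 libraries, and in both control libraries MMP25 was, without a peak. The metalloproteinase inhibitors TIMP4 and RECK had no enriched cluster, nor had the plasminogen activators PLAU and PLAT. SERPINH1, the collagen chaperone HSP47, had none in 14 and 16 tested clusters in the TGFβ1 libraries and 12 and 11 in the control libraries. TIMP4 had only 1 tested cluster in each library. PLAU had 2 and 3 in the TGFβ1 libraries and 2 and 4 in the control libraries. Most protein-coding genes with a tested cluster held no enriched one, so these absences are not read as a lack of binding.

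The listed genes with a peak besides MMP2, MMP14 and SERPINE2 were FURIN, BMP1 and LRP1. FURIN, the convertase that cleaves the precursor of MMP14, had 2 peaks in the TGFβ1 list and 0 in the control list. Its highest log2 folds were 4.20 and 4.77 in the TGFβ1 libraries and 1.60 and 1.85 in the control libraries, with 20 and 13 tested clusters in TGFβ1 and 7 and 8 in control libraries. FURIN is described for its TGFβ1 peak, so higher folds in TGFβ1 libraries follow from that choice. BMP1, which removes the C-terminal propeptide of procollagens, had 1 TGFβ1 peak, with highest log2 folds of 2.87 and 4.84 in TGFβ1 and 2.60 and 3.55 in control libraries, which overlapped. LRP1, an endocytic receptor that takes up complexes of proteases with their inhibitors, had 16 TGFβ1 and 11 control peaks.

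Enriched clusters in 1 TGFβ1 library only lay in SERPINB6 (replicate 1) and in ADAM12, ADAM15, CTSL and CST3 (replicate 2), none of which had a peak in a list from both replicates. These genes, like MMP25, TIMP4, RECK, PLAU, PLAT and SERPINH1, are named after their values were seen. Over all protein-coding genes with a tested cluster, 6.55% and 11.5% held an enriched one in TGFβ1 replicates 1 and 2. In control replicates 1 and 2 the shares were 2.96% and 5.11%. A call in 1 TGFβ1 library is therefore not read as an effect of treatment.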

How the data were processed

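The 4 immunoprecipitated libraries and the 2 lists that the authors made from both replicates were used, and the 4 input libraries were used only as part of those folds. The submitters' processing notes name cutadapt, UMI-tools, STAR and GRCh38, with no order or versions. No source used here gives the peak caller, the input normalisation or the rule that joined replicates. The files have no header. From its range, 1 deposited column was taken to hold the authors' log2 folds over input. Another deposited column was taken to hold the authors' −log10 p-values, with a maximum of 400. Both served to describe and filter clusters. No file holds read counts, and depth is unknown.

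Gene bounds came from RefSeq (GRCh38.p14). The strand came from the RefSeq promoter table and, for MMP2 and TIMP2, from the clusters within their bounds, all of which lay on 1 strand. Coordinates are 1-based. An overlap of 1 nt on the same strand made peaks shared. The share of enriched clusters was compared by exact permutation over libraries, and intervals are exact binomial (Clopper-Pearson) at 95%. The inferred values over the bases of list peaks were added after the values were seen. Members and lists were chosen with earlier results of these data known. The named genes are the 7 members and listed genes with a peak in either list, apart from those said to be named after their values were seen. No genome sequence was used here, so the sites are given by position. The code was tested on simulated data. Alternatives were other limits for fold, p, overlap and merging, an own rule for joining replicates, leaving out each replicate, and a block for the replicate number. Versions were Python 3.11.15, pandas 2.3.3, NumPy 2.4.6, matplotlib 3.10.9 and SciPy 1.17.1. 1 listed gene is not reported here.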

Additional observations from a re-analysis of the deposited data

How the results depend on the processing

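The TGFβ1 minus control difference in the share of enriched clusters, 2.40 percentage points, stayed positive under the 10 alternatives: log2 fold limits of 2 (2.97) and 4 (0.978), −log10 p limits of 2 and 5, assignment by any overlap, each library left out (1.56 to 3.23) and the replicate number as a block (2.40, exact sign-flip permutation p = 0.5, the smallest that 2 pairs allow). Deviations of same-numbered libraries in the median log2 fold of a gene correlated with r = 0.0634 over 1001 genes. The labels name nothing that a number stands for. Folds relative to input need not carry the mark of a shared culture or batch, so whether same-numbered samples share one cannot be told. The 8 TGFβ1 peaks became 3 when both values had to reach 4, and 7 or 5 when replicate 1 or replicate 2 was left out. The 4 control peaks became 1 at that limit, and 4 or 1 when replicate 1 or replicate 2 was left out. The TGFβ1 peaks became 6 and the control peaks 0 when enriched clusters of both replicates had to overlap: the enriched cluster of control replicate 1 lay in MMP14 and those of control replicate 2 lay in MMP2. Peaks that overlapped the other condition were 1 of TGFβ1 and 1 of control when both values had to reach 4. The sites numbered 4 and 3 with merging at 0 and 50 nt as well.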
